A study of Mus musculus with 9 samples.

Results

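The genes described here are 45 mouse genes of cell shape and cell-cell contact: keratins, vimentin and other intermediate filament proteins, cadherins, claudins and other tight junction proteins, the adhesion molecule Epcam, desmosome proteins, catenins, and regulators of the epithelial state. They were taken by symbol from a table of 50813 genes, and each symbol was found once. No cut-off on their values was used, but earlier results of these data were known when they were chosen. A total of 26 had enough reads to be tested and 19 did not. The cells were LLC (Lewis lung carcinoma) cells, a mouse lung cancer line that carries luciferase, grown in culture in serum-supplemented DMEM with antibiotics and given no other treatment. The 9 polyA RNA-seq libraries came from WT cells, from CD47 KO clone E3 and from CD47 KO clone E5, with 3 independent replicates of each. CD47 is a surface protein best known as a signal that holds back phagocytes, and it was disrupted by electroporating Cas9 and a guide RNA. Each KO line is 1 expanded clone and WT is 1 line, so the effect of losing CD47 and a property of a single clone cannot be told apart.

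Epithelial cells hold together through belts of cadherins tied to actin by catenins, through tight junctions built of claudins and occludin, and through desmosomes that anchor keratin filaments. In the epithelial-to-mesenchymal transition, cells lose E-cadherin, claudins, Epcam and keratins and gain N-cadherin and vimentin, and repressors of the Snail and ZEB families bind E-box sequences in the promoters of epithelial genes during this change. Keratin filaments are built from pairs of a type I and a type II keratin, and keratin 8 (type II) with keratin 18 (type I) is the main pair of simple epithelia, while vimentin and nestin form filaments of mesenchymal and progenitor cells.

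Levels are given as CPM, the counts of a library scaled by TMM to a common library size, and gene against gene only as CPM per kb of summed exon length. Fold changes, their standard errors (SE) and adjusted p-values are from edgeR, by its quasi-likelihood test, with p-values adjusted after Benjamini-Hochberg over the 14593 genes tested. A gene is said to have risen or fallen where its adjusted p is under 0.05, and is called a DEG where its absolute log2 fold change is also above 1. The libraries held 44257404 to 55095219 counts, and a count of 3, the floor used here, is worth 0.0555 to 0.066 CPM depending on the library. Cd47 was at 187, 179 and 182 CPM in WT, at 47.4, 36.8 and 49.6 in clone E3 and at 15.5, 18.6 and 18.1 in clone E5, so every library went with its label. One library, replicate 3 of clone E3, stood apart. Its 832 genes with under 2 kb of exon had a median log2 ratio of 0.56 to its replicates, and the 6297 with over 6 kb one of -0.26. These medians ran from -0.055 to 0.068 in the WT and clone E5 libraries. They ran from -0.32 to 0.13 in replicates 1 and 2 of clone E3, whose comparison includes replicate 3. Of 8 markers of lung epithelium, 5 (Nkx2-1, Sftpc, Sftpb, Sftpa1 and Scgb1a1) were at 0 in all 9 libraries, so these do not show the labelled lung origin. Foxj1 and Napsa had at most 10 and 13 counts in a library, while Ager had 44 to 125.

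The promoters of Krt8, Krt18 and Epcam are shown because they frame what follows: the keratin pair was expressed in all lines and moved in opposite directions in the 2 clones, whereas Epcam had no read in any library. The sequences are the 250 bases before the transcription start in RefSeq's table for GRCm38.p6, read 5′ to 3′ on the gene's strand. Krt8 lies at chr15:102004343-102004592 on the minus strand, Krt18 at chr15:102027966-102028215 on the plus strand, and Epcam at chr17:87635729-87635978 on the plus strand. Capitals mark the E-box CAGGTG or its reverse complement CACCTG.
Krt8: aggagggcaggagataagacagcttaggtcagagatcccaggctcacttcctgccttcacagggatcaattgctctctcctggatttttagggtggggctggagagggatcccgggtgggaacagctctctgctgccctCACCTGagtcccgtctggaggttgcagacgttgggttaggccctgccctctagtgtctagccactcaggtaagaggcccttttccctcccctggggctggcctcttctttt
Krt18: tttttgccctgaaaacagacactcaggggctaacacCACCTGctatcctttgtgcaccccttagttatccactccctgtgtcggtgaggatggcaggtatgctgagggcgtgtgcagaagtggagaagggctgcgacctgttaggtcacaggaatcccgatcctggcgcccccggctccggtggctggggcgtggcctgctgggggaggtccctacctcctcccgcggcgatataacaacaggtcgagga
Epcam: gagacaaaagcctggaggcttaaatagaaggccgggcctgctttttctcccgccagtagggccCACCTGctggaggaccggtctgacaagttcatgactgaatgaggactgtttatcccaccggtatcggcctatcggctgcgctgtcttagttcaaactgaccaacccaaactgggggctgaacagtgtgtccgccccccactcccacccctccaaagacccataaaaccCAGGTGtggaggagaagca
The match begins 111 bases before the start in Krt8, 214 bases before it in Krt18, and 187 and 19 bases before it in Epcam. Of the 45 genes, 27 matched the table, with 36 promoters between them, and 13 of the 36 (36.1%) held a match on either strand, against 5657 of all 32851 promoters (17.2%). A match of 6 letters is a description of the window and says nothing about what binds there.

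Across the 45 genes, vimentin, the keratin 8 and 18 pair, catenins and Tjp1 were at high level, and most claudins, Epcam and the desmosomal cadherins were at or near 0. A total of 17 genes exceeded a mean of 1 CPM in at least 1 line, and 6 exceeded 100 CPM in every line: Krt18, Vim, Tjp1, Ctnna1, Ctnnb1 and Ctnnd1. Silent genes, those under 0.1 CPM in each of the 9 libraries, numbered 13: Cdh4, Cdh6, Cldn3, Cldn4, Cldn7, Tjp3, Epcam, Dsp, Pkp1, Dsg2, Dsc2, Esrp1 and Spint1. Their highest count in any library was 5. Of these, Cdh6, Cldn3, Epcam, Pkp1, Dsg2 and Dsc2 were at 0 in all 9 libraries, which allows up to 0.066 CPM in any one of them. The silent share was 28.9% of the 45 genes, against 38.7% of 21502 protein-coding genes and 64.4% of all rows. A further 6, Cdh1, Cdh5, Cldn6, Cldn15, Ovol1 and Rab25, had at most 11 counts in any library and were too low to test.

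**Figure D1:**
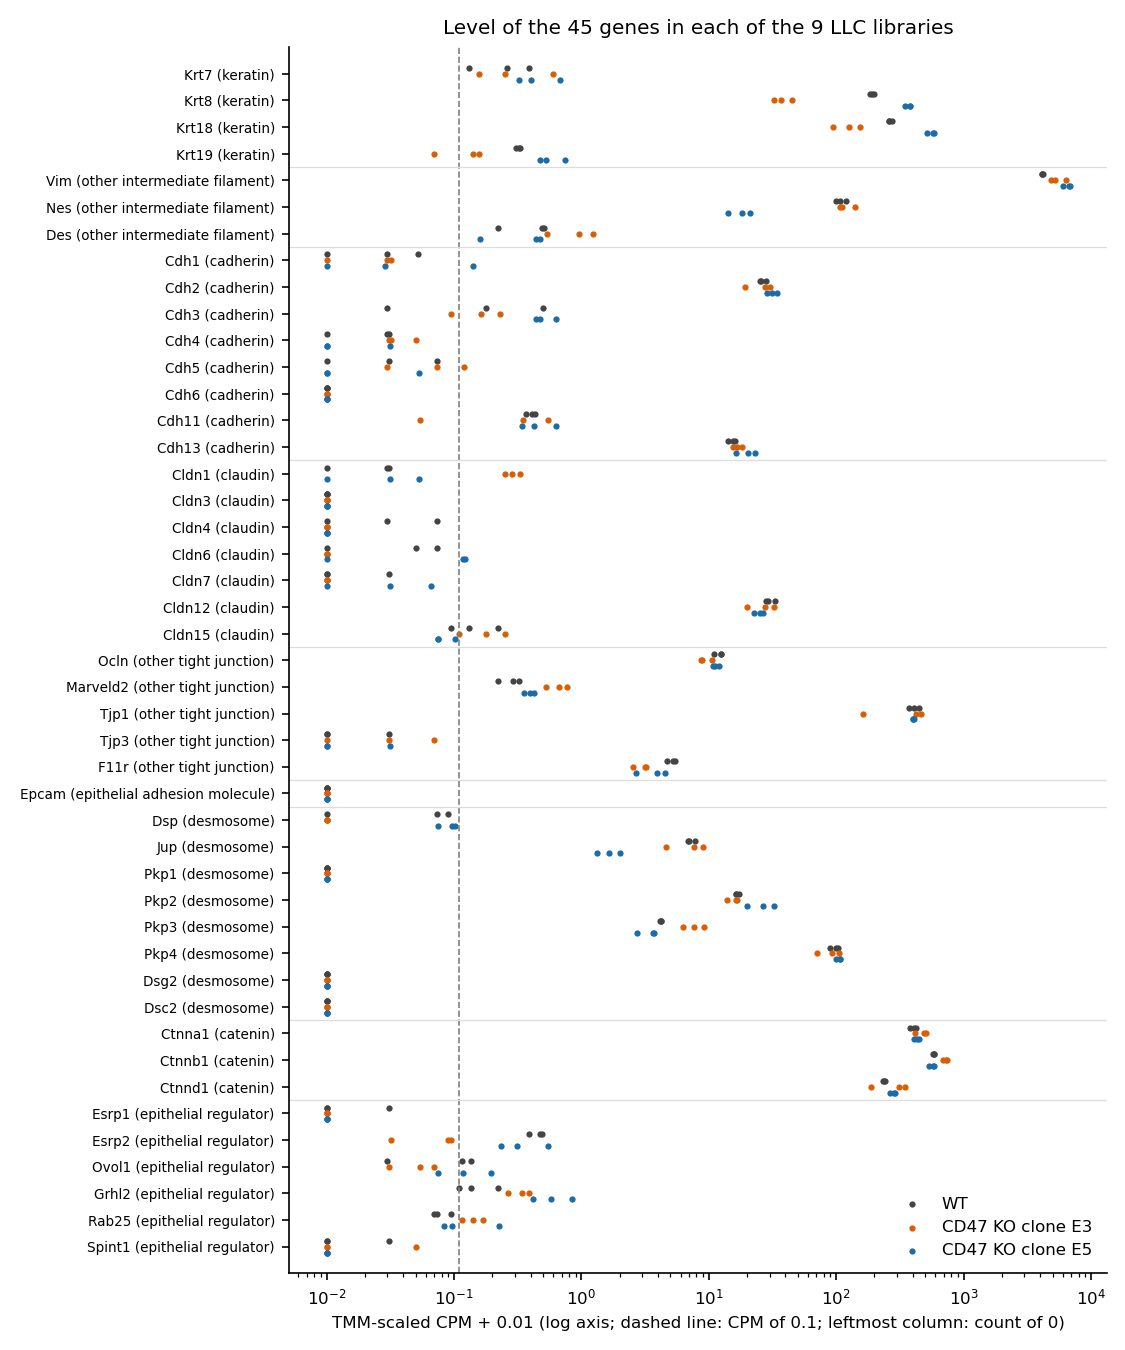
Level of each of the 45 genes in each library, as TMM-scaled CPM plus 0.01 on a log axis, with 1 point per library and the genes grouped by role. WT, clone E3 and clone E5 are coloured separately, the dashed line marks 0.1 CPM, and points at the far left are counts of 0; the 13 silent genes lie left of the line in every library.

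In clone E3 against WT, 4 of the 26 tested genes fell as DEGs (Krt8, Krt18, Krt19 and Esrp2) and 2 rose as DEGs (Cldn1 and Marveld2). Over all genes tested, 4.39% were lower and 5.43% higher DEGs in that comparison. By adjusted p alone, 6 fell and 5 rose, against 14.7% and 15.7% of all genes. In clone E5 against WT, 2 fell as DEGs (Nes and Jup) and 2 rose as DEGs (Krt18 and Grhl2), where 5.52% and 2.69% of all genes did so. By adjusted p alone, 2 fell and 5 rose, against 11.7% and 8.96%. Between the clones, clone E5 was higher than clone E3 for 4 DEGs (Krt8, Krt18, Krt19 and Esrp2) and lower for 5 (Nes, Des, Cldn1, Jup and Pkp3), where 3.49% and 7.52% of all genes were called. By adjusted p alone these were 5 and 7 genes, against 14.7% and 17.2%. The median log2 fold change of the 26 genes was -0.03 in clone E3, 0.22 in clone E5 and 0.25 between the clones, beside 0.01, -0.002 and -0.01 over all genes. The comparisons with WT share the WT libraries, so each is given by its own values. In bulk RNA, fewer cells with a transcript and less of it per cell cannot be told apart.

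**Figure D2:**
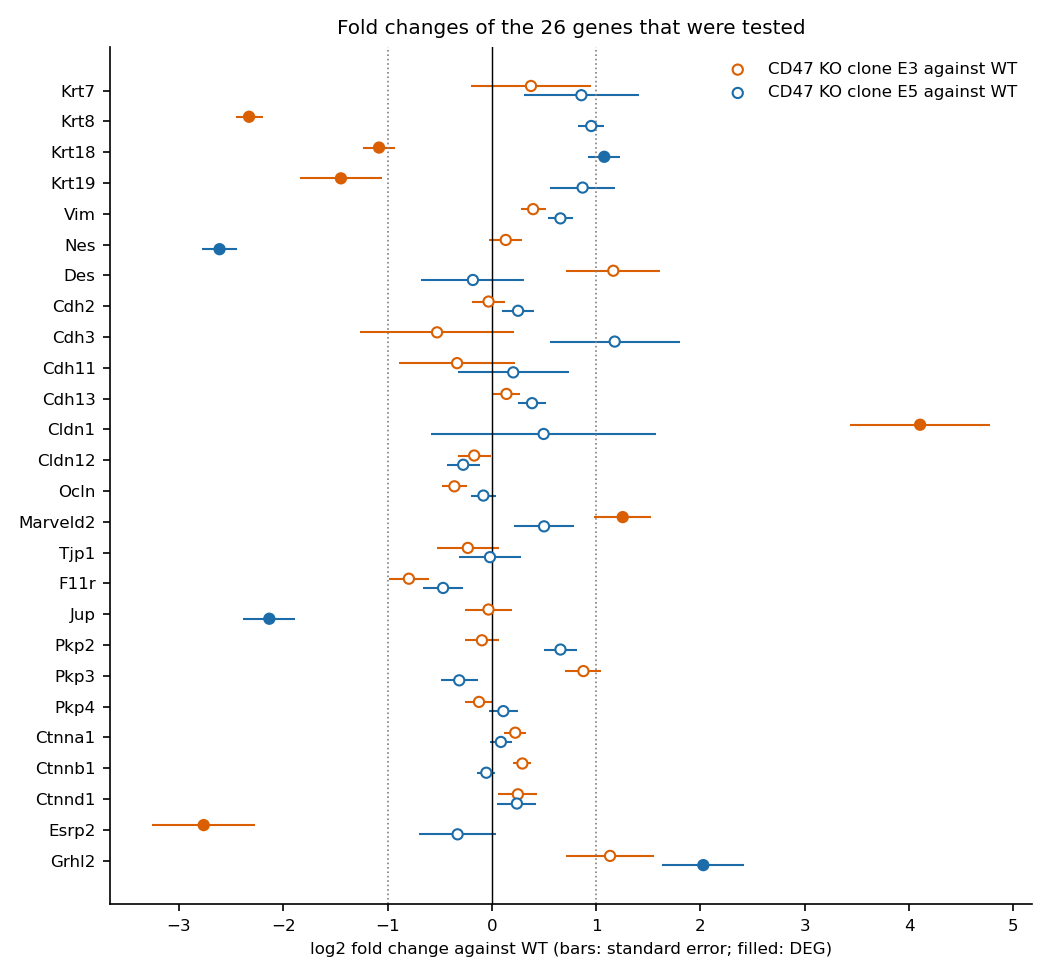
Log2 fold change of each of the 26 tested genes in clone E3 (orange) and clone E5 (blue) against WT, with bars of 1 SE from edgeR; filled circles are DEGs and dotted lines mark log2 values of -1 and 1. Krt8 and Krt18 lie on opposite sides of 0 in the 2 clones (-2.33 and 0.95 for Krt8), and Cldn1 in clone E3 is a fitted value against 1 count or fewer in each WT library.

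Of the 4 keratins, Krt8 and Krt18 moved to opposite sides of WT in the clones, Krt19 fell in clone E3 and Krt7 did not pass in any comparison. Krt8 (chr15:101905133-101912917, GRCm39) was at 183, 191 and 199.7 CPM in WT, at 36.8, 32.3 and 45.3 in clone E3 and at 379, 383 and 349.6 in clone E5. The 3 groups did not overlap, with clone E3 lowest and clone E5 highest. Krt8 fell by 2.33 on the log2 scale in clone E3 (SE 0.13, adjusted p = 2.31e-06) and rose by 0.95 in clone E5 (SE 0.12, adjusted p = 0.000375). Its partner Krt18 (chr15:101936615-101940462) was at 275, 259 and 259 CPM in WT, at 127, 95 and 153 in clone E3 and at 517, 574 and 583 in clone E5. These groups did not overlap either and stood in the same order. Krt18 fell by 1.08 in clone E3 (SE 0.15, adjusted p = 0.000568) and rose by 1.08 in clone E5 (SE 0.15, adjusted p = 0.000672).

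Clone E5 thus exceeded clone E3 by 3.28 for Krt8 (SE 0.13, adjusted p = 7.24e-08) and by 2.16 for Krt18 (SE 0.16, adjusted p = 4.75e-06), both on the log2 scale. The partners did not move by the same amount. Per kb of exon, the ratio of Krt8 to Krt18 within a library was 0.532 ± 0.0404 (SD, n = 3) in WT, 0.227 ± 0.0197 in clone E3 and 0.489 ± 0.049 in clone E5. Its 3 values in clone E3, 0.213, 0.249 and 0.217, lay below all 6 values of the other lines, which ran from 0.440 to 0.567. An exact test over 3 against 3 libraries cannot go below a two-sided p of 0.10, so none is given for this ratio.

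Krt19, a small keratin of simple and ductal epithelia (chr11:100031636-100039491), followed the same order at a far lower level. It was at 0.321, 0.294 and 0.317 CPM in WT, at 0.0600, 0.148 and 0.132 in clone E3 and at 0.517, 0.737 and 0.462 in clone E5, on counts of 3 to 34. The groups did not overlap. Krt19 fell by 1.45 in clone E3 (SE 0.39, adjusted p = 0.0182), while the higher level in clone E5 missed the threshold (log2 fold change 0.87, SE 0.31, adjusted p = 0.0715). Between the clones the difference was 2.32 (SE 0.36, adjusted p = 0.000895). Krt7, a keratin of ductal epithelia, ran from 0.120 to 0.668 CPM over the 9 libraries with overlapping groups, and did not pass in any comparison.

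The median gene around Krt8 and Krt18 did not share their shift. Within 500 kb of Krt8, 21 other genes were tested, and their median log2 fold change was -0.001 in clone E3 and 0.036 in clone E5. Each clone had 2 lower DEGs and no higher DEG among them. Around Krt18 the 24 tested neighbours had medians of -0.003 and 0.039. Krt19 had 15 tested neighbours with medians of 0.004 and -0.026, but 1 of them, the keratin gene Krt13, fell in clone E3 as Krt19 did and rose in clone E5, with values given further on. One neighbour that did move with Krt8 was Gm36026, which lies on the opposite strand and shares 101 bases of exon with it, at 0.0660 to 1.47 CPM. Its log2 fold change was -2.53 in clone E3 and 3.28 between the clones. In clone E5 against WT it was 0.74 and did not pass (SE 0.28, adjusted p = 0.0856). The strand setting of the counting is not given in the sources used here, so reads of the 2 genes in the shared bases cannot be told apart. The processed pseudogene Krt8-ps, whose sequence is close to that of Krt8, was at 0.190 to 0.294 CPM in WT, 0.0423 to 0.132 in clone E3 and 0.582 to 0.781 in clone E5, in the order of Krt8 and at a small fraction of its level.

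**Figure D3:**
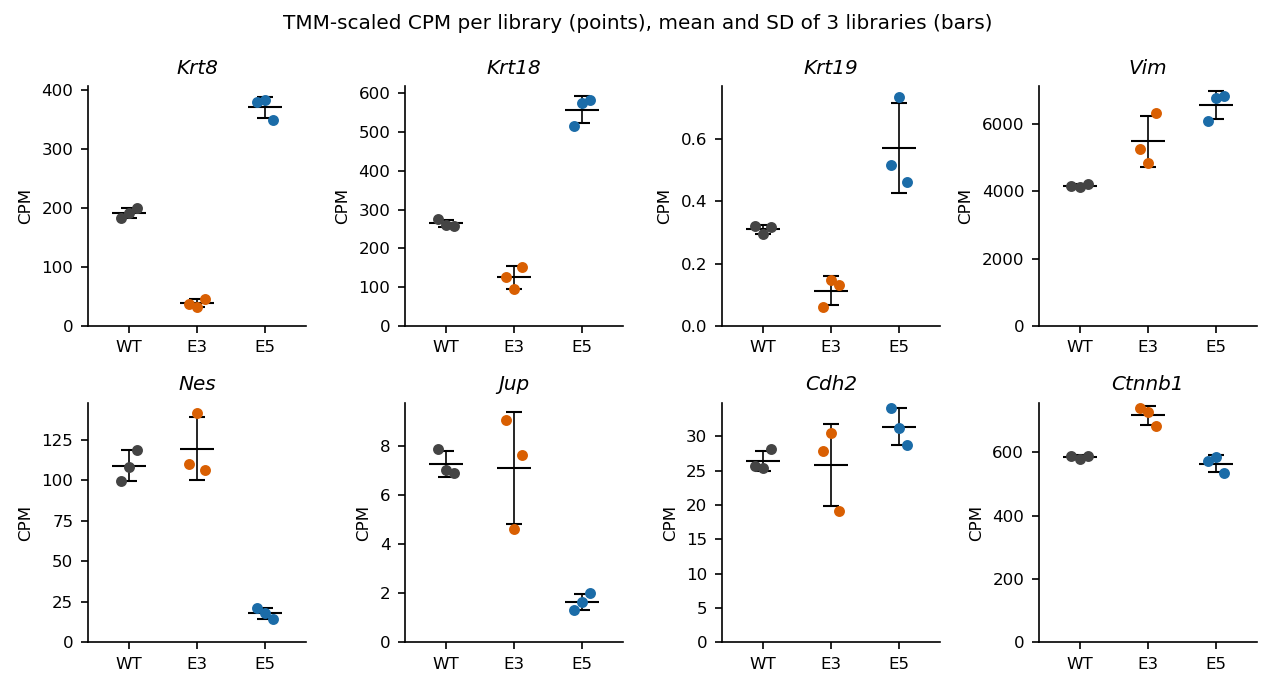
TMM-scaled CPM of Krt8, Krt18, Krt19, Vim, Nes, Jup, Cdh2 and Ctnnb1, with 1 point per library and bars for the mean and SD of 3 libraries; each axis starts at 0. Clone E3 lies lowest and clone E5 highest for the 3 keratins, clone E5 lies lowest for Nes and Jup, and the groups of Cdh2 lie close together.

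Vimentin, the filament protein commonly used to mark mesenchymal cells, was the most abundant of the 45 genes in every library and was higher in both clones. Vim (chr2:13578738-13587637) was at 4151, 4131 and 4217 CPM in WT, at 5259, 4848 and 6333 in clone E3 and at 6093, 6786 and 6833 in clone E5. All KO libraries lay above all WT libraries, and the clones overlapped each other. Vim rose by 0.40 in clone E3 (SE 0.12, adjusted p = 0.0301) and by 0.66 in clone E5 (SE 0.12, adjusted p = 0.00335), both under the size that makes a DEG. The rise in clone E3 missed the adjusted p in 5 of 16 alternative fits (up to 0.102), among them each fit without 1 WT library, and that in clone E5 in 0 of 16. The difference between the clones missed the threshold (0.26, SE 0.12, adjusted p = 0.122). It passed without replicate 3 of clone E3 (0.39, SE 0.09, adjusted p = 0.00421). Genes near Vim were also higher: its 9 tested neighbours within 500 kb had a median log2 fold change of 0.34 for clone E3 against WT. For clone E5 this median was 0.436, and no neighbour was a DEG against WT. Whether the rise of Vim is shared with its region was not tested.

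Since vimentin rose in both clones and the keratins split, the balance between them differed by clone. The ratio of Vim to the sum of Krt8 and Krt18, per kb of exon, was 3.11 ± 0.0434 (SD, n = 3) in WT, 10.99 ± 1.18 in clone E3 and 2.39 ± 0.0722 in clone E5. The 3 groups did not overlap, with 10.3 to 12.3 in clone E3 and 2.32 to 2.46 in clone E5. With the length of the canonical transcript in place of the summed exons, which shortens Vim from 4.75 to 2.19 kb and leaves both keratins as they are, the ratios were 6.75, 23.8 and 5.19, in the same order.

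**Figure D4:**
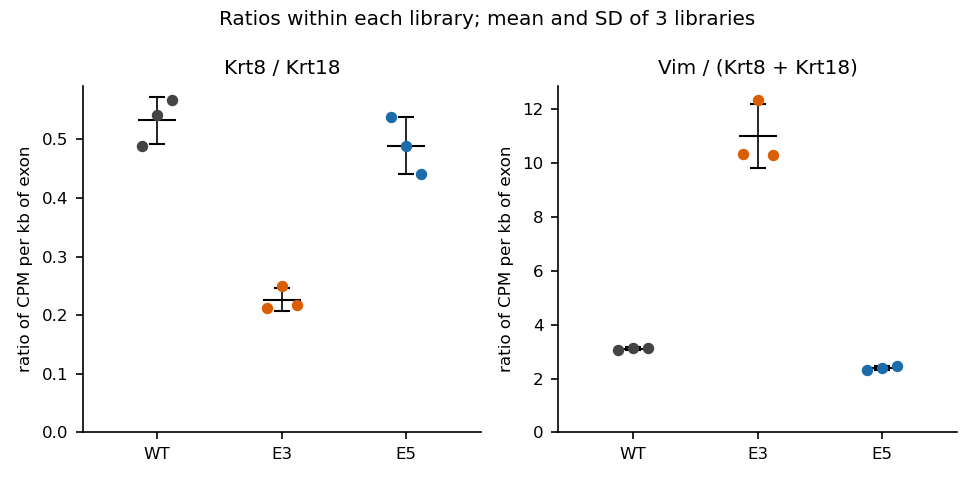
Ratio of Krt8 to Krt18 (left) and of Vim to Krt8 plus Krt18 (right) within each library, on CPM per kb of exon, with 1 point per library and bars for the mean and SD of 3 libraries. Clone E3 stands apart from WT and clone E5 in both panels, near 0.227 on the left and near 10.99 on the right.

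Nestin, an intermediate filament protein of neural and muscle progenitors that assembles with vimentin, fell in clone E5. Nes (chr3:87878400-87887758) was at 99.9, 108 and 119 CPM in WT, at 110.3, 142 and 106 in clone E3 and at 21.2, 18.1 and 14.3 in clone E5. Clone E5 lay below all other libraries, while WT and clone E3 overlapped. Nes fell by 2.61 in clone E5 (SE 0.17, adjusted p = 2.82e-06) and was 2.74 lower there than in clone E3, at a log2 fold change of -2.74 (SE 0.17, adjusted p = 1.31e-06). The 24 tested neighbours of Nes within 500 kb had a median of -0.029 in clone E5, with 2 lower DEGs and no higher DEG among them. In clone E3 their median was -0.355. Des, which encodes the muscle filament desmin, was at 0.211 to 0.501 CPM in WT, 0.528 to 1.23 in clone E3 and 0.151 to 0.462 in clone E5. Its difference between the clones was -1.35 (SE 0.46, adjusted p = 0.0453), and the adjusted p was over 0.05 in 9 of 15 alternative fits (up to 0.131), among them those without replicate 3 of clone E3, without any 1 of the clone E5 libraries and with a replicate block. The 4 muscle markers summed to 0.264 CPM at most in any library.

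Among the cadherins, no gene rose or fell in any comparison. Cdh1, which encodes E-cadherin, the main cadherin of epithelial junctions, had 6 counts at most in a library. Its levels were 0.0200, 0.0421 and 0 CPM in WT, 0.0200, 0 and 0.0220 in clone E3, and 0, 0.130 and 0.0185 in clone E5, so all lines were at or near the floor. Cdh2, which encodes N-cadherin, the cadherin gained in the mesenchymal state, was at 25.7, 25.4 and 28.1 CPM in WT, at 27.8, 30.5 and 19.1 in clone E3 and at 34.2, 31.3 and 28.8 in clone E5. Clone E3 overlapped WT, and clone E5 lay above WT by a small margin. The log2 fold change of Cdh2 was -0.03 in clone E3 (SE 0.16, adjusted p = 0.903) and 0.25 in clone E5 (SE 0.16, adjusted p = 0.300).

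The lowest value of Cdh2, in replicate 3 of clone E3, was that of the library that stood apart. Without replicate 3 of clone E3, the log2 fold change of Cdh2 was 0.14 in clone E3 (SE 0.09, adjusted p = 0.231), and in clone E5 it was 0.26 and passed the adjusted p (SE 0.08, adjusted p = 0.0229). Cdh13, the T-cadherin that is held in the membrane by a lipid anchor, was the other well-expressed cadherin, at 14.1 to 22.9 CPM over the 9 libraries. In clone E5 its log2 fold change was 0.39 with all libraries (adjusted p = 0.0641) and the same without that library (0.39, adjusted p = 0.0132). Per kb of exon, the ratio of Cdh2 to Cdh13 was 2.31 ± 0.122 (SD, n = 3) in WT, 2.04 ± 0.405 in clone E3, 2.17 ± 0.554 in clone E5, and 1.39, 1.23 and 1.30 by canonical length, with overlapping groups. Cdh3, the P-cadherin, and Cdh11, a cadherin of mesenchymal cells, did not exceed 0.625 CPM in any library. Cdh5 of endothelium stayed under the level tested, and the 4 endothelial markers summed to 0.460 CPM at most.

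Of the 7 claudins, the strand proteins of tight junctions, Cldn12 alone was well expressed, at 20.1 to 33.1 CPM with no call. Cldn1 (chr16:26175392-26190591) appeared only at low level and in clone E3. Its counts were 1, 1 and 0 in WT, 16, 13 and 11 in clone E3 and 2, 1 and 0 in clone E5, or 0.242 to 0.320 CPM in clone E3. The clone E3 libraries lay above all others. Cldn1 rose in clone E3 at least 4.49-fold over the floor of 3 counts per library (adjusted p = 0.00131), and clone E5 was at least 4.52-fold lower than clone E3 (adjusted p = 0.00165). Cldn3 was at 0 in all 9 libraries, Cldn4 and Cldn7 had 3 counts at most, and Cldn6 and Cldn15 were too low to test.

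Of the 5 tight junction genes other than claudins, 4 were tested; in clone E3 Marveld2 rose, Ocln and F11r fell and Tjp1 did not pass, and in clone E5 none of the 4 passed. Ocln, which encodes occludin, was at 12.5, 11 and 12.5 CPM in WT, at 10.5, 8.64 and 8.84 in clone E3 and at 12, 11.2 and 10.7 in clone E5. It fell by 0.36 in clone E3 (SE 0.12, adjusted p = 0.0407), where all libraries lay below WT, but the adjusted p was over 0.05 in 11 of 16 alternative fits (up to 0.133). In clone E5 the log2 fold change of Ocln was -0.08 (SE 0.12, adjusted p = 0.680). Marveld2, which encodes tricellulin of three-cell contacts, was at 0.280, 0.316 and 0.211 CPM in WT, at 0.520, 0.761 and 0.660 in clone E3 and at 0.345, 0.412 and 0.388 in clone E5. It rose by 1.25 in clone E3 (SE 0.27, adjusted p = 0.00631), at 26 to 36 counts against 10 to 15 in WT. The 18 tested neighbours of Marveld2 within 500 kb had a median log2 fold change of 0.065 in clone E3. Among them 3 were higher and 1 was a lower DEG, and whether Marveld2 rose with its region was not tested. F11r, the junctional adhesion molecule JAM-A, fell by 0.80 in clone E3 (adjusted p = 0.0112), from a mean of 5.12 CPM to 2.95.

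Tjp1, the ZO-1 scaffold that links junction proteins to actin, was at 371, 412 and 446 CPM in WT, at 421, 464 and 162 in clone E3 and at 404, 410.0 and 400.4 in clone E5. A single library was low, and it was again replicate 3 of clone E3. With all libraries the log2 fold change of Tjp1 was -0.23 in clone E3 (SE 0.30, adjusted p = 0.596), and without that library it was 0.11 (SE 0.08, adjusted p = 0.315), so the direction depends on it. In clone E5 it was -0.02 (SE 0.30, adjusted p = 0.974). Tjp3, the related ZO-3 scaffold of epithelia, was silent.

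Desmosomes join cells through the cadherins Dsg2 and Dsc2, which bind plakoglobin and plakophilins, which bind desmoplakin and through it the keratins. The LLC libraries held transcripts for only part of this structure. Dsg2, Dsc2 and Pkp1 were at 0 throughout, and Dsp, which encodes desmoplakin, had 5 counts at most in a library. Jup, Pkp2, Pkp3 and Pkp4 were expressed, so plakoglobin and some plakophilins were present without the listed cadherins and almost without desmoplakin. Jup, which encodes plakoglobin (chr11:100259784-100288589), was at 7.85, 7.0 and 6.90 CPM in WT, at 9.06, 4.61 and 7.61 in clone E3 and at 1.31, 1.63 and 2.00 in clone E5. Clone E5 lay below all other libraries, while clone E3 spread on both sides of WT. Jup fell by 2.13 in clone E5 (SE 0.25, adjusted p = 0.000191), and its difference between the clones was -2.10 (SE 0.25, adjusted p = 0.000155). Its 22 tested neighbours had a median log2 fold change of -0.053 in clone E5, with 1 higher and 2 lower DEGs among them.

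Pkp3, a plakophilin of most epithelia, was at 4.19, 4.19 and 4.14 CPM in WT, at 7.60, 6.21 and 9.19 in clone E3 and at 3.64, 3.73 and 2.72 in clone E5. The groups did not overlap. Pkp3 rose by 0.88 in clone E3 (SE 0.17, adjusted p = 0.00371), and clone E5 was lower than clone E3 at a log2 fold change of -1.19 (SE 0.18, adjusted p = 0.000622). Pkp2, the plakophilin of heart and simple epithelia, rose by 0.66 in clone E5 (adjusted p = 0.0162), at 19.8 to 32.6 CPM against 16.4 to 17.1 in WT. Pkp4, which also binds at adherens junctions, was at 70.6 to 108 CPM with no call.

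The catenins, which tie cadherins to actin, were expressed at high level in all lines. Ctnnb1, the β-catenin that also acts in Wnt signalling, was at 589, 577 and 589 CPM in WT, at 741, 726 and 684 in clone E3 and at 574, 584 and 535 in clone E5. It rose by 0.29 in clone E3 (SE 0.09, adjusted p = 0.0275), where every library lay above WT, but the adjusted p was over 0.05 in 9 of 16 alternative fits (up to 0.122). In clone E5 the log2 fold change of Ctnnb1 was -0.05 (SE 0.09, adjusted p = 0.721). Ctnna1 (α-catenin) and Ctnnd1 (p120-catenin) ran from 378 to 506 and from 186 to 347 CPM and passed in no comparison with all libraries. Without replicate 3 of clone E3, both passed the adjusted p in that clone, Ctnna1 at 0.30 (adjusted p = 0.00576) and Ctnnd1 at 0.47 (adjusted p = 0.000264).

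Per kb of exon, the WT levels ran in the order Vim (877 ± 9.47, SD, n = 3), Krt18 (184 ± 6.64), Krt8 (97.7 ± 4.26), Ctnnb1 (71.7 ± 0.870), Tjp1 (51.7 ± 4.78), Ctnna1 (44.2 ± 2.50), Ctnnd1 (19.9 ± 0.482), Nes (17 ± 1.49) and Pkp4 (13.7 ± 1.06). This order depends on the length used: by canonical transcript length, Ctnnb1 and Ctnna1 at 161 and 108 stood above Krt8 at 97.7 in WT, and Pkp4 at 21.2 above Nes at 17.8, while Vim and Krt18 stayed first and second. By summed exon length, in the mean of clone E3, Krt8 at 19.5 ± 3.39 stood below the 3 catenins and Tjp1 at 44.1 ± 20.6. In replicate 3 of that clone, the library that stood apart, Krt8 stood above Tjp1 and Ctnnd1 instead. In clone E5, Krt8 at 189 ± 9.28 and Krt18 at 388 ± 25.0 stood above every gene of the 45 other than Vim, at 1383 ± 87.1, and Nes had dropped to 2.78 ± 0.544, below Cdh2 at 3.62 ± 0.312.

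The regulators of the epithelial state were at low level in all lines. Esrp2, a splicing factor that keeps epithelial splice forms, was at 0.461, 0.484 and 0.380 CPM in WT, at 0.0800, 0.0845 and 0.0220 in clone E3 and at 0.539, 0.304 and 0.222 in clone E5. Clone E3 lay below all other libraries, with 1 to 4 counts. Esrp2 fell by 2.76 in clone E3 (SE 0.49, adjusted p = 0.00216), and clone E5 was 2.43 higher than clone E3 (SE 0.51, adjusted p = 0.00485). Of its 7.85 kb of exon, Esrp2 shares 2626 bases with Nfatc3 on the opposite strand, which was at 74.9 to 159 CPM. Reads of the 2 genes in these shared bases cannot be told apart while the strand setting is not known. Nfatc3 itself had a log2 fold change of 0.05 in clone E3 (adjusted p = 0.893).

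Grhl2, a transcription factor that drives junction genes in epithelia, was at 0.10, 0.126 and 0.211 CPM in WT, at 0.380, 0.254 and 0.330 in clone E3 and at 0.840, 0.564 and 0.407 in clone E5. The groups stood in that order without overlap. Grhl2 rose by 2.03 in clone E5 (SE 0.39, adjusted p = 0.00477), at 22 to 39 counts against 5 to 10 in WT, and its 1.13 in clone E3 missed the threshold (SE 0.43, adjusted p = 0.0679). Esrp1 and Spint1 were silent, and Ovol1 and Rab25 did not exceed 10 counts in a library.

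A wider list of 119 genes of the same structures was read beside the 45. Of these, 61 were silent and 47 were tested. In clone E3 against WT, 7 of the 47 were higher and 5 lower DEGs, where 5.43% and 4.39% of all tested genes were called. In clone E5 against WT the counts were likewise 7 and 5, where 2.69% and 5.52% of all tested genes were called. Clone E5 was higher than clone E3 for 5 and lower for 8, where 3.49% and 7.52% were called. Their median log2 fold changes were 0.17 in clone E3, 0.07 in clone E5 and 0.16 between the clones. Nefl and Krt13, both intermediate filament genes, moved to opposite sides of WT in the clones. Nefl, which encodes the light neurofilament protein of neurons, was at 43.4, 43.7 and 49.5 CPM in WT, at 4.18, 3.49 and 4.18 in clone E3 and at 129, 144 and 138 in clone E5. It fell by 3.53 in clone E3 (SE 0.12, adjusted p = 7.15e-08) and rose by 1.59 in clone E5 (SE 0.10, adjusted p = 3.19e-06), with no overlap of the 3 groups. Krt13, a keratin of stratified epithelia that lies within 500 kb of Krt19 and Jup, was at 0.621, 0.526 and 0.422 CPM in WT, at 0, 0.0211 and 0 in clone E3 and at 2.35, 2.47 and 2.11 in clone E5. It fell at least 8.28-fold in clone E3 (adjusted p = 6.79e-05) and rose by 2.13 on the log2 scale in clone E5 (SE 0.25, adjusted p = 0.000184).

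Junction genes of that list moved in both directions. Jam2, an adhesion molecule of endothelial junctions, rose by 2.29 in clone E3 (SE 0.40, adjusted p = 0.00198) and by 2.38 in clone E5 (SE 0.40, adjusted p = 0.00205), from 0.10 to 0.148 CPM in WT. Cldn9 rose at least 2.73-fold in clone E3 (adjusted p = 0.0282) and at least 4.70-fold in clone E5 (adjusted p = 0.00497), on 17 counts at most. Jam3, the partner of Jam2, was at 4.27, 4.33 and 3.74 CPM in WT, at 4.46, 4.21 and 6.11 in clone E3 and at 0.0215, 0.0217 and 0 in clone E5. It fell at least 66.6-fold in clone E5 (adjusted p = 4.59e-07). Cgnl1 encodes paracingulin, which joins tight and adherens junctions to actin. It was at 55.4, 62.3 and 64.3 CPM in WT, at 43.5, 39.9 and 23.4 in clone E3 and at 1.62, 1.67 and 1.48 in clone E5. On the log2 scale, Cgnl1 fell by 5.26 in clone E5 (SE 0.24, adjusted p = 2.89e-07). In clone E3 it fell by 0.77 (SE 0.19, adjusted p = 0.0123), under the size for a DEG. The cadherin gene Cdh26 had 1 to 5 counts in WT libraries, 25 to 27 in those of clone E3 and 0 in those of clone E5. It rose by 3.25 in clone E3 (SE 0.46, adjusted p = 0.00121) and fell in clone E5 (adjusted p = 0.0369), where both groups lay near the floor, so no fold is given. Rbm47, an RNA-binding protein, fell by 1.97 in clone E3 (SE 0.23, adjusted p = 0.000197), from 3.33 to 4.81 CPM in WT to 0.814 to 1.32.

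Markers of other cell types were read beside these results. The 5 fibroblast markers summed to 26.8 to 33.8 CPM in WT, 44.8 to 77.8 in clone E3 and 17.2 to 20.6 in clone E5, in the reverse order of Krt8 and Krt18. Pdgfra made up most of the sum, Thy1 was at 0 in all libraries, and the part of these genes in the keratin result was not tested. The 8 lung epithelium markers summed to 2.00 to 2.06 CPM in WT, 2.18 to 2.97 in clone E3 and 0.970 to 1.22 in clone E5, nearly all of it Ager. Of the 6 leukocyte markers, 5 were silent and Cd68 carried the sum of 2.35 to 3.45 CPM.

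Replicate 3 of clone E3 also departed from its replicates in some of these genes, more in some long ones than in others. Of the 17 genes above 1 CPM, Tjp1 (7.92 kb of exon) had a log2 ratio of -1.45 to the mean of the other 2 replicates, Ctnnd1 (11.9 kb) one of -0.83, Cdh2 (8.67 kb) one of -0.60 and Cldn12 (10.2 kb) one of -0.58. Other long genes moved less: Pkp2 (13.1 kb) had a log2 ratio of -0.25, Cdh13 (11.5 kb) -0.17, Ocln (9.38 kb) -0.11, Ctnnb1 (8.17 kb) -0.10 and Jup (8.88 kb) 0.15. The short Krt18 (1.44 kb) and Krt8 (1.96 kb) stood at 0.46 and 0.39, and Vim at 0.33. Without this library the keratin differences were larger: Krt8 fell by 2.47 and Krt18 by 1.26 in clone E3. The DEGs among the 45 genes then numbered 6 in clone E3, 4 in clone E5 and 8 between the clones. Over all 14867 genes tested in that fit, the DEGs numbered 1438, 1351 and 1582. By adjusted p alone, 7 rose and 6 fell in clone E3, 9 rose and 3 fell in clone E5, and 6 and 8 differed between the clones. Over all genes of that fit, 3234 rose and 3189 fell in clone E3, and 3098 and 3148 did so in clone E5. Between the clones, 3326 were higher and 3229 lower in clone E5. The genes added in clone E5 were Krt19, Cdh2, Cdh13, Ctnnd1 and Cldn12. More genes of all kinds passed the adjusted p in that fit than with all libraries, and the spread estimate is shared by the 3 lines. With all libraries the DEGs over all genes were 1433, 1198 and 1606, so those between the clones were fewer without that library.

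**Figure D5:**
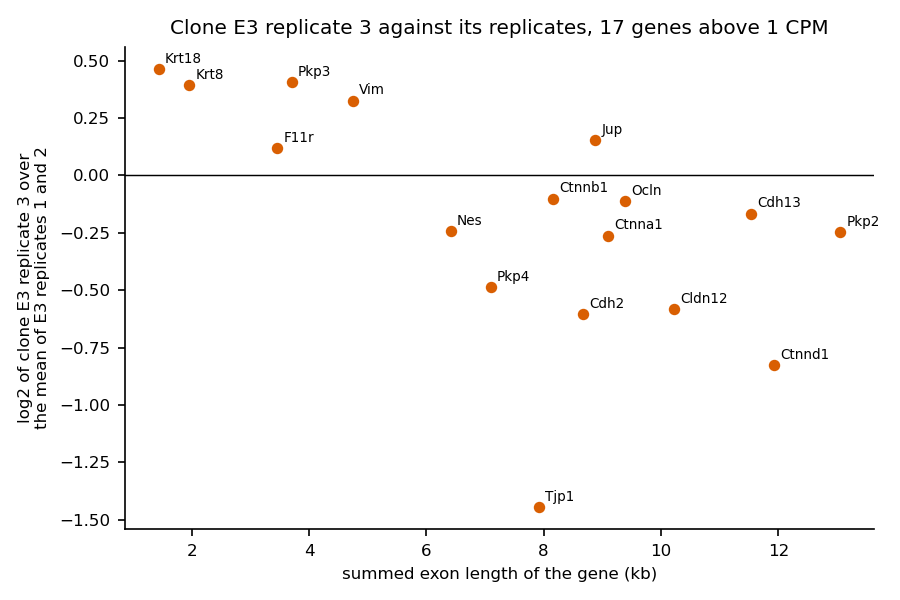
Log2 of the level in replicate 3 of clone E3 over the mean of replicates 1 and 2, against summed exon length in kb, for the 17 genes above 1 CPM; each point is 1 gene. Krt18 and Krt8 lie at 0.46 and 0.39 at the short end, and Tjp1 is lowest at -1.45.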

How the data were processed

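RNA-seq counts of 3 LLC lines were analysed, with 3 libraries each. Libraries came from a directional polyA kit. Per the submitters' processing notes, FastQC, Trimmomatic and STAR were used with GRCm39, and the authors deposited raw counts of each library by gene, neither normalized nor pooled. Which counter, strand setting and annotation release they used is not given in the sources used here. The authors used DESeq2 for their comparisons. In the table, 375 rows share a symbol with another row, none of them among the 45 genes.

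From the deposited counts, all 9 libraries were fitted together in edgeR 4.0.16 (R 4.3.3) with TMM scaling and filterByExpr (minimum count 10, minimum total 15), which kept 14593 genes, and tested by quasi-likelihood. SEs were taken as the size of the log2 fold change divided by the root of its F statistic. The coefficient of biological variation was 14.8%. The test was checked on simulated counts. Replicate numbers were taken from the labels, and library pairs differed by more than counting noise (chi-square per degree of freedom 4.71 to 224, the highest 2 in pairs with replicate 3 of clone E3). The floor of 3 counts covers counting error only. Exon lengths, overlaps and neighbours came from the GENCODE vM39 annotation of GRCm39, and promoters from a RefSeq table. Of the 45 genes, 27 share exon bases with another gene, so their counts are uncertain there. The 45 genes, the wider list, the marker lists and the tests were chosen with earlier results of these data known. Genes named are every one of the 45, with full values for DEGs and for Vim, Cdh2, Cdh1, Krt8, Krt18, Ocln, Tjp1 and Ctnnb1, and from the wider list the 3 most positive and 3 most negative DEGs of each clone against WT. Other genes are named as exon overlaps, copies or neighbours. Alternatives were DESeq2 1.42.0, other scalings and filters, only the 2 lines compared, a replicate block, adjusted p alone, each library left out, and other limits for silence.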

Additional observations from a re-analysis of the deposited data

Results flagged for a closer look

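For 9 of the 45 genes the level differed between the 2 KO clones, by the direct test of clone E5 against clone E3 in edgeR with Benjamini-Hochberg adjustment (a DEG by adjusted p and size). Krt8 (3.28), Krt18 (2.16), Krt19 (2.32) and Esrp2 (2.43) were higher in clone E5 on the log2 scale. Nes (-2.74), Des (-1.35), Cldn1 (-3.61), Jup (-2.10) and Pkp3 (-1.19) were lower. For Krt8 and Krt18 the clones moved to opposite sides of WT, for Krt19, Esrp2, Cldn1 and Pkp3 the change from WT passed the adjusted p in clone E3 and for Nes and Jup in clone E5, and Des passed in neither. The value for Cldn1 is fitted against counts of 2 or fewer, and the bound of at least 4.52-fold applies. The share of all tested genes called in this comparison was 3.49% higher and 7.52% lower.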

How the results depend on the processing

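The counts of DEGs among the 45 genes were 6 in clone E3, 4 in clone E5 and 9 between the clones, and 12, 12 and 13 in the wider list. They stayed within 1.5 times of these under DESeq2, both other scalings, no filter and the 2 lines alone. By adjusted p alone they were 11 (clone E3) and 7 (clone E5) of the 45, and 22 (clone E3) and 21 (between clones) of the wider list. With at least 10 counts in every library, fewer genes could be tested and the counts were 3 (clone E3) and 5 (between clones) of the 45 and 6, 7 and 8 of the wider list. Over all genes that filter left 828, 571 and 836 DEGs, against 1433, 1198 and 1606. Leaving out 1 library gave 5 to 7, 4 to 5 and 8 to 10 of the 45, and 10 to 13, 9 to 13 and 12 to 15 of the wider list. At a limit of 0.5 CPM, 20 genes were silent in place of 13. By canonical transcript length, chosen after seeing the data, Vim to Krt8 plus Krt18 was 6.75, 23.8 and 5.19 and Cdh2 to Cdh13 was 1.39, 1.23 and 1.30 in WT, clone E3 and clone E5. The replicate number as a block gave 6, 4 and 8 DEGs. Deviations of libraries with the same number correlated at -0.17 to 0.05, and 0 of 9 libraries correlated best with their own number in both other lines. No pairing by number was seen, but with 3 libraries per line a weak pairing could be missed.

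Of 752 values for single genes, 719 kept direction and call, 14 were lost as DEGs, 5 became DEGs and 14 reversed, none of these a DEG with all libraries. Upper-quartile scaling gave 0.036 for Cdh2 and 0.051 for Jup in clone E3, where it put the median of all genes at 0.088 (-0.10 between the clones). Leaving out 1 library gave, in clone E3, -0.17 to 0.14 for Cdh2, -0.25 to 0.20 for Jup, -0.49 to 0.11 for Tjp1 and -0.011 to 0.21 for Nes. In clone E5 it gave -0.49 to 0.16 for Des, -0.088 to 0.045 for Tjp1 and -0.38 to 1.09 for Cldn1, and between the clones -0.12 to 0.47 for Tjp1. Krt18 in clone E3 dropped under the size for a DEG without replicate 2 of that clone (-0.92) and under upper-quartile scaling (-0.99). Krt19 in clone E3 missed the adjusted p without WT replicate 1, WT replicate 3 or replicate 1 of clone E3 (0.0535 to 0.0589). Vim, Ocln and Ctnnb1 in clone E3, which rose or fell by adjusted p alone, missed it in 5, 11 and 9 of 16 alternatives. Des between the clones was lost in 9 of 15 alternatives (adjusted p up to 0.131). The causes were not tested. Depth limits genes near 0.1 CPM, where a few reads set the value.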
